A study of Mus musculus with 15 samples.

Results

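The splicing machinery genes are those that encode the protein parts of the spliceosome and the SR proteins that guide it. They were taken from the gene table by symbol: every row starting with Snrp, Sf3, Srsf, Sfrs or Prpf, and every row made of Lsm and a number, with Snrpn left out. This gave 52 genes of the 14392 in the table. By role they were 7 Sm core proteins, 4 U1 and U2 snRNP proteins, 8 subunits of SF3A and SF3B, 10 LSm proteins, 12 Prpf factors and 11 SR proteins, the last including Sfrs18, an older symbol of Pnisr. No expression value was used to choose them.

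RNA was sequenced by Smart-seq2, a method for very small amounts of RNA, from mouse zygotes and 2-cell embryos in 4 groups of 2 libraries, each made from 10 embryos. WT embryos came from Usp16+/+ mothers. cKO embryos came from Usp16 fl/fl;Gdf9-Cre mothers, in which the Cre is active in the oocyte from the primordial follicle stage on, so the egg lacks the gene for the H2A deubiquitinase Usp16. WT and cKO mice had the same C57BL/6 background. All mothers were superovulated juvenile females mated with WT males, so cKO embryos carry a paternal Usp16 allele. The 7 ChIP samples of the series were not analysed here. Usp16 itself stood at 184 and 187 FPKM (fragments per kilobase of transcript and mapped fragments, a level corrected for transcript length and library total) in the WT zygote libraries and at 16.8 and 22.0 in the cKO zygotes. It stood at 168.4 and 183 in WT 2-cell embryos and at 167.7 and 84.8 in cKO 2-cell embryos. Usp16 thus separated the genotypes in zygotes, while in cKO 2-cell embryos, which have a paternal allele, 1 library lay just under the lower WT library.

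Splicing removes introns from pre-mRNA. The U1 snRNP marks the 5′ end of an intron, the U2 snRNP with SF3A and SF3B marks the branch point, and the U4/U6.U5 tri-snRNP with the Prpf factors then forms the active spliceosome. Most spliceosomal snRNAs carry a ring of the Sm proteins, while U6 carries a ring of LSm proteins. SR proteins bind exons and help to recruit these parts. The zygote runs largely on RNA stored in the egg, and transcription from the embryo's own genome has its major onset at the late 2-cell stage in mice.

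The promoters of 4 genes that the results turn on are shown, for the members of the Sm core and the U1 and U2 snRNPs that rose most (Snrpc and Snrpd2) and fell most (Snrpb2 and Snrpd3) from the WT zygote to the WT 2-cell stage. Each is the 100 bases before the annotated start, 5′ to 3′ on the gene's strand, from RefSeq on GRCm38.p6. Capitals mark the ETS core CCGGAAG on either strand. The windows are chr17:27839987-27840086 for Snrpc, chr7:19149738-19149837 for Snrpd2, chr2:143062969-143063068 for Snrpb2 and chr10:75517942-75518041 for Snrpd3, all on the plus strand.
Snrpc: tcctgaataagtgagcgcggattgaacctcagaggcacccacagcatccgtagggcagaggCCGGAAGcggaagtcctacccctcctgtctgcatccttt
Snrpd2: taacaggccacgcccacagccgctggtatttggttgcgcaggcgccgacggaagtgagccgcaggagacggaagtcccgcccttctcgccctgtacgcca
Snrpb2: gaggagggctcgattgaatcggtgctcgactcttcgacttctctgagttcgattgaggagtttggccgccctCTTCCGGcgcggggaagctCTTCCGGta
Snrpd3: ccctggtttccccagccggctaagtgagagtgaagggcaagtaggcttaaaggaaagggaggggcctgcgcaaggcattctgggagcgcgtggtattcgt

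Promoter windows of 300 bases, from 250 bases before to 50 after the start, were found for 42 of the 52 genes. Those without one include Lsm1, Lsm4, Lsm12, Prpf18, Sf3b4, Sf3b5, Sfrs18, Snrpb and Snrpd1. The ETS core was present in 18 of the 42, against 9.93% of the 27025 genes with a window and 8.86% of all 32851 windows. Of the members with a window that rose from WT zygote to WT 2-cell, 4 of 12 held it, as did 4 of 10 that fell and 10 of 20 that were not called. So genes with the ETS core lie on both sides of the comparison, as the windows of Snrpc and Snrpb2 show. The CCAAT box (CCAAT) was in 18 of the 42 (41.1% of genes), the TATA box (TATAAA) in 4 (15.7%), the YY1 core (AAGATGG) in 3 (7.28%) and the NR5A2 motif (AAGGTCA) in 5 (5.38%), each read on both strands, and no string contains another. A match is a string of letters and not a binding site. On mm9, the build of the expression values, the protein-coding genes span chr17:27976919-27988913 (Snrpc), chr7:19735071-19738084 (Snrpd2), chr2:142888775-142898589 (Snrpb2) and chr10:74980787-74998185 (Snrpd3) in the GENCODE M1 annotation.

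In the table, values under 1 FPKM had been set to 1 by the authors. Of the 52 genes, 51 stood above this floor in every library, and Prpf4 was at the floor in both cKO zygote libraries. Together the 52 genes held 1.44% to 1.96% of the summed FPKM of a library. Summed FPKM was 547752 to 593317 in 7 libraries and 770989 in cKO 2-cell replicate 2. Genes of the whole table at the floor numbered 4242 to 4747 in zygotes, 1642 and 1716 in WT 2-cell embryos, and 3684 and 4240 in cKO 2-cell embryos. Markers of the labelled stages were in place: all 7 oocyte and early embryo markers were above the floor in every library, and the 3 2-cell markers measured (Zscan4c, Zscan4d and Zfp352) summed to 4.45 to 7.99 FPKM in zygotes, 332 and 539 in WT 2-cell embryos and 133 and 126 in cKO 2-cell embryos. Of the markers listed for other cells, the table held 3 of 8 for cumulus and granulosa, 4 of 6 for sperm and 1 of 3 for blood. Each sum counts a gene at the floor as 1, so sums of 3 for cumulus and granulosa and 4.00 for sperm hold no marker above it. Cumulus and granulosa markers summed to 24.3 to 28.7 in zygotes, nearly all of it Cyp19a1 with Foxl2 and Tnfaip6 at the floor, and to 3 to 10.3 in 2-cell embryos. Sperm markers summed to 16.5 to 23.1 in zygotes, led by Prm2, and to 4.00 to 11.4 in 2-cell embryos, and the blood marker Hba-a1 reached 8.66 in WT 2-cell replicate 2 and at most 1.99 elsewhere. The part of these sources in the results was not tested. In libraries of pooled embryos, fewer cells with a transcript and less of it per cell cannot be told apart. The labels do not say whether the 2 libraries of a group came from separate collections, so p-values measure the spread between these libraries, which may be technical.

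**Figure D1:**
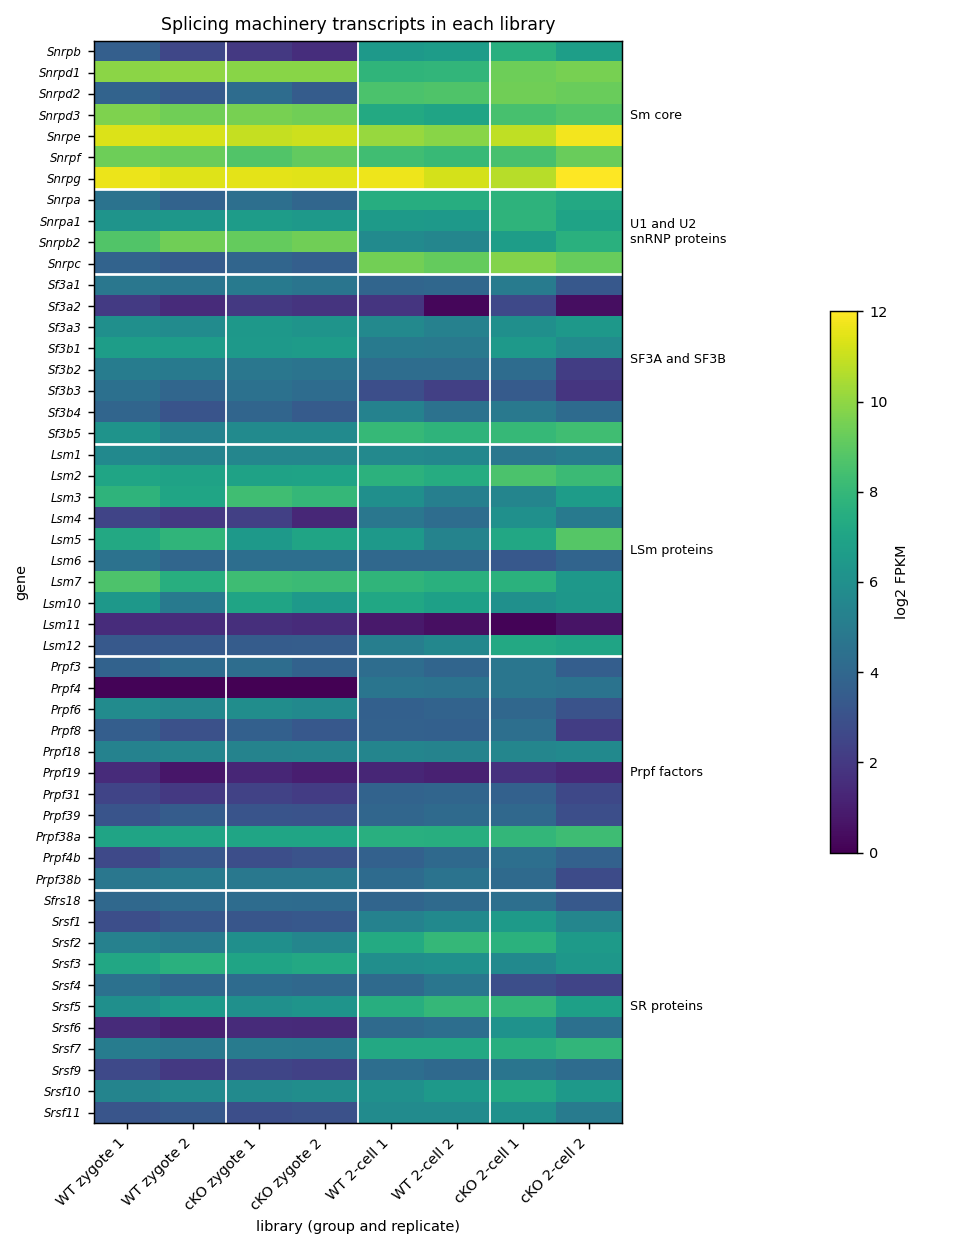
Heat map of log2 FPKM of 51 of the 52 splicing machinery genes (rows, grouped by role) in the 8 libraries (columns, by group and replicate), from dark (0, the floor) to yellow (12). Several rows such as Snrpc and Snrpd2 turn from dark to bright at the 2-cell stage, and Snrpg and Snrpe are bright throughout.

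From the WT zygote to the WT 2-cell stage 17 of the 52 splicing machinery genes rose, 11 fell and 24 were not called. Snrpc rose 50.3-fold and Snrpd2 32.2-fold, whereas Snrpb2 fell 11.1-fold and Snrpd3 5.24-fold; Snrpd2 and Snrpd3, which moved apart, are both part of the Sm ring. The test was limma on log2(FPKM + 1) across all 14392 genes, with Benjamini-Hochberg adjusted p under 0.05. All genes were called higher at 34.2% and lower at 15.5%, against 32.7% and 21.2% of the 52, so the splicing genes moved about as often as the table did. By the ratio of group means over 3, 15 were higher and 7 lower (26.0% and 8.78% of all genes), and the libraries did not overlap for 25 that were higher and 16 that were lower (49.4% and 26.4%). The median log2 fold change was 0.16 over the 52 and 0.27 over all genes. With the libraries rescaled by median ratios, these medians became -0.14 and 0.03, so the middle of the group had no firm direction. Leaving out any 1 of the 4 WT libraries cut the number that fell from 11 to 6.

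Among the U1 and U2 snRNP proteins, the RNA of Snrpc, which helps U1 to hold the 5′ splice site, was at 14.1 and 11.4 FPKM in the WT zygotes and at 706 and 579 in the WT 2-cell libraries. Snrpa, the U1 protein that binds a loop of U1 snRNA, was at 23.6 and 14.3 in WT zygotes and at 178 in both WT 2-cell libraries. Snrpb2, a protein of the U2 snRNP that binds U2 snRNA, was at 426 and 671 in WT zygotes and at 53.0 and 45.9 in WT 2-cell embryos. Both U1 genes thus rose and the U2 gene fell, with no overlap of the libraries of the stages. The log2 fold changes were 5.55 (SE 0.27, limma adjusted p = 9.29e-05) for Snrpc, 3.20 (SE 0.31, limma adjusted p = 0.000469) for Snrpa and -3.41 (SE 0.37, limma adjusted p = 0.000721) for Snrpb2. Snrpa1, the partner of the Snrpb2 protein on U2 snRNA, was at 73.4 and 81.5 in WT zygotes and at 92.5 and 91.0 in WT 2-cell embryos, and was not called (log2 fold change 0.24). Snrpb2 and Snrpa1, whose proteins form a pair, therefore differed 7.08-fold in mean FPKM in WT zygotes in favour of Snrpb2 and 1.86-fold in WT 2-cell embryos in favour of Snrpa1.

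In the Sm core, where 1 copy of each protein enters the ring, 2 genes rose and 4 fell. Snrpd2 was at 14.0 and 11.0 FPKM in WT zygotes and at 387 and 419 in WT 2-cell embryos. Snrpb, which makes the SmB proteins, was at 12.5 and 5.95 in WT zygotes and at 91.0 and 97.8 in WT 2-cell embryos. Both were among the lowest Sm genes in zygotes and rose by 4.91 (SE 0.27, limma adjusted p = 0.000105) and 3.30 (SE 0.41, limma adjusted p = 0.00117) on the log2 scale. Snrpd3, whose protein pairs with SmB, was at 825 and 679 in WT zygotes and at 158 and 129 in WT 2-cell embryos. Snrpd1, whose protein pairs with SmD2, was at 958 and 1037 in WT zygotes and at 233 and 242 in WT 2-cell embryos. So in each of these pairs 1 gene rose and the other fell: the log2 fold change was -2.38 (SE 0.23, limma adjusted p = 0.000439) for Snrpd3 and -2.06 (SE 0.20, limma adjusted p = 0.000432) for Snrpd1.

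Snrpe, Snrpf and Snrpg make the E, F and G proteins, and Snrpe and Snrpg were the highest Sm genes in WT embryos. Snrpe was at 2631 and 2486 FPKM in WT zygotes and at 1152 and 921 in WT 2-cell embryos, and Snrpf went from 652 and 609.6 to 316 and 272; both fell, with log2 fold changes of -1.31 (limma adjusted p = 0.0257) and -1.10 (limma adjusted p = 0.0265), each call being kept in 2 of the 8 fits without 1 library. Snrpg was at 3206 and 2773 in WT zygotes and at 3298 and 2414 in WT 2-cell embryos and was not called. Taken over the ring, the highest Sm gene exceeded the lowest 256-fold and 466-fold in the WT zygote libraries and 36.2-fold and 24.7-fold in the WT 2-cell libraries. The levels of the 7 genes thus lay closer together at the 2-cell stage, with the lowest gene being Snrpb and the highest Snrpg in all 4 WT libraries. Snrpe, Snrpf and Snrpg are short genes with many near-identical copies in mammalian genomes, and Snrpb shares much of its sequence with Snrpn, so their values are uncertain where reads could be placed on either copy.

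**Figure D2:**
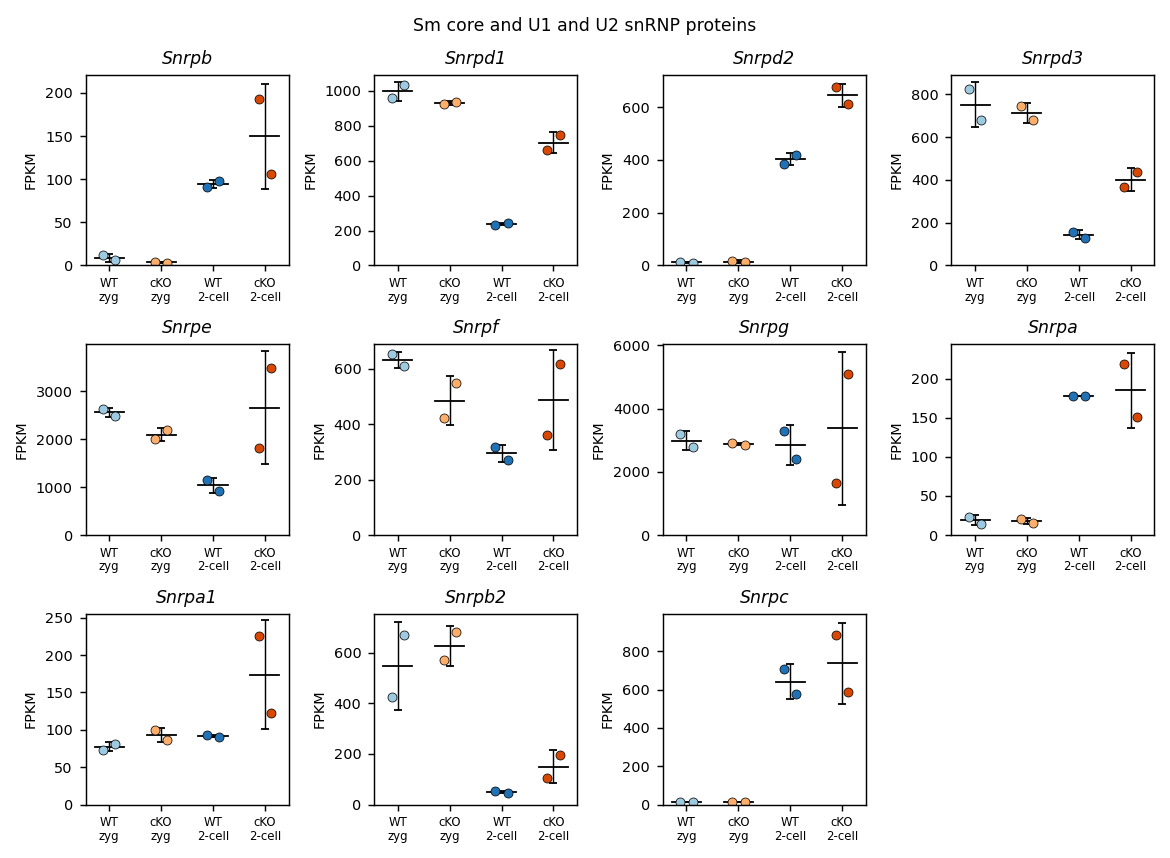
FPKM (vertical axes, linear, from 0) of the 7 Sm core genes and 4 U1 and U2 snRNP protein genes by group. Points are single libraries, horizontal bars the means of 2 and error bars the SD; Snrpc, Snrpd2, Snrpa and Snrpb are low in all 4 zygote libraries, and Snrpd1, Snrpd3 and Snrpb2 are lowest in the WT 2-cell libraries.

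SF3A and SF3B, which clamp the U2 snRNP onto the branch point, split as well, with 2 genes of 8 rising and 2 falling. Sf3b5, a small SF3B subunit, was at 70.8 and 39.4 FPKM in WT zygotes and at 266 and 227 in WT 2-cell embryos (log2 fold change 2.19, SE 0.30, limma adjusted p = 0.00175). Sf3b4 went from 15.1 and 8.73 to 39.6 and 22.8 (log2 fold change 1.31, limma adjusted p = 0.0381). Both rose without overlap. Sf3b1, the large subunit that holds the branch point, was at 101 and 99.2 in WT zygotes and at 29.6 and 29.2 in WT 2-cell embryos (log2 fold change -1.73, SE 0.24, limma adjusted p = 0.00182). Sf3b3 was at 21.6 and 15.6 and then at 7.45 and 4.81 (log2 fold change -1.47, limma adjusted p = 0.0459). The calls of Sf3b4 and Sf3b3 were each kept in 2 of the 8 fits without 1 library. The 3 SF3A genes and Sf3b2 were not called, with log2 fold changes from -0.73 (Sf3a1) to -0.41 (Sf3a3).

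The LSm proteins form the ring on U6 snRNA (LSm2 to LSm8) and, with LSm1 in place of LSm8, a ring that takes part in mRNA decay in the cytoplasm; LSm10 and LSm11 belong to the U7 snRNP of histone pre-mRNA processing. Of the 10 genes 2 rose and 2 fell. Lsm4 was at 5.56 and 3.97 FPKM in WT zygotes and at 27.1 and 19.8 in WT 2-cell embryos (log2 fold change 2.08, SE 0.45, limma adjusted p = 0.00961). Lsm12, which is not a member of either ring, was at 10.3 and 10.5 and then at 34.6 and 46.8 (log2 fold change 1.86, SE 0.21, limma adjusted p = 0.00082). These were the LSm genes that rose. Lsm3 was at 223 and 132 in WT zygotes and at 63.5 and 35.7 in WT 2-cell embryos (log2 fold change -1.83, SE 0.48, limma adjusted p = 0.0211), and Lsm11 went from 2.84 and 2.90 to 1.74 and 1.42 (log2 fold change -0.59, limma adjusted p = 0.0167). The length and position of Lsm3 are uncertain, since the annotation used here for them has 2 entries of that symbol. Whether this touches its FPKM values is not known, because the annotation behind those values is not given. Within LSm2 to LSm7 the highest gene exceeded the lowest 71.7-fold and 58.2-fold in WT zygotes and 14.0-fold and 11.8-fold in WT 2-cell embryos, a narrowing like that of the Sm core. Not every complex narrowed: within SF3A and SF3B this ratio went from 24.3 and 35.3 in WT zygotes to 74.2 and 195 in WT 2-cell embryos. The lowest gene there was Sf3a2, at 3.58 FPKM in WT 2-cell replicate 1. In replicate 2 it was at 1.16, close to the floor, so the ratio of 195 rests on that value. The calls of Lsm4, Lsm3 and Lsm11 were each kept in 5 of the 8 fits without 1 library.

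Of the 12 Prpf factors 2 rose and 1 fell. Prpf4, a protein of the U4/U6 snRNP, was nearly at the floor in WT zygotes, at 1.08 and 1.06 FPKM, and at 25.3 and 23.9 in WT 2-cell embryos (log2 fold change 3.63, SE 0.20, limma adjusted p = 0.000105). Prpf31, which joins U4/U6 to U5, was at 5.49 and 3.92 and then at 14.2 and 15.0 (log2 fold change 1.46, limma adjusted p = 0.0185), a call kept in 4 of the 8 fits without 1 library. Prpf6, which bridges the same particles, was at 55.7 and 46.8 in WT zygotes and at 12.6 and 14.2 in WT 2-cell embryos (log2 fold change -1.85, SE 0.31, limma adjusted p = 0.00381). So the tri-snRNP genes also moved in both directions, while Prpf3, a further U4/U6 protein, stayed uncalled at 13.6 and 18.3 and then 19.8 and 15.0. Prpf8, the scaffold of the catalytic centre, was at 11.9 and 7.93 in WT zygotes and at 13.2 and 12.9 in WT 2-cell embryos and was not called (log2 fold change 0.39, SE 0.62). Prpf18, which acts in the second step of splicing, had 40.0 to 44.4 FPKM in all 4 WT libraries.

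Of the 11 SR proteins 7 rose and 1 fell, beside 34.2% and 15.5% of all genes. Srsf6 was at 2.79 and 2.17 FPKM in WT zygotes and at 17.5 and 20.4 in WT 2-cell embryos (log2 fold change 2.52, SE 0.51, limma adjusted p = 0.00799). Srsf2 was at 39.3 and 32.2 and then at 162 and 252 (log2 fold change 2.47, SE 0.42, limma adjusted p = 0.00383). Srsf7, Srsf11, Srsf1, Srsf9 and Srsf5 also rose, with log2 fold changes of 2.31, 2.41, 2.31, 1.70 and 1.53. Of these Srsf7 was at 32.5 and 27.9 in WT zygotes and 153 in both WT 2-cell libraries. Srsf3, the smallest SR protein, was at 146 and 198 in WT zygotes and at 61.6 and 64.4 in WT 2-cell embryos (log2 fold change -1.42, SE 0.28, limma adjusted p = 0.00739). Srsf3 was the SR gene that fell. It was the highest SR gene in all 4 zygote libraries, and Srsf5 the highest in both WT 2-cell libraries. Srsf4, Srsf10 and Sfrs18 were not called. Without 1 library, the call of Srsf6 was kept in 5 of the 8 fits and that of Srsf3 in 6.

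**Figure D3:**
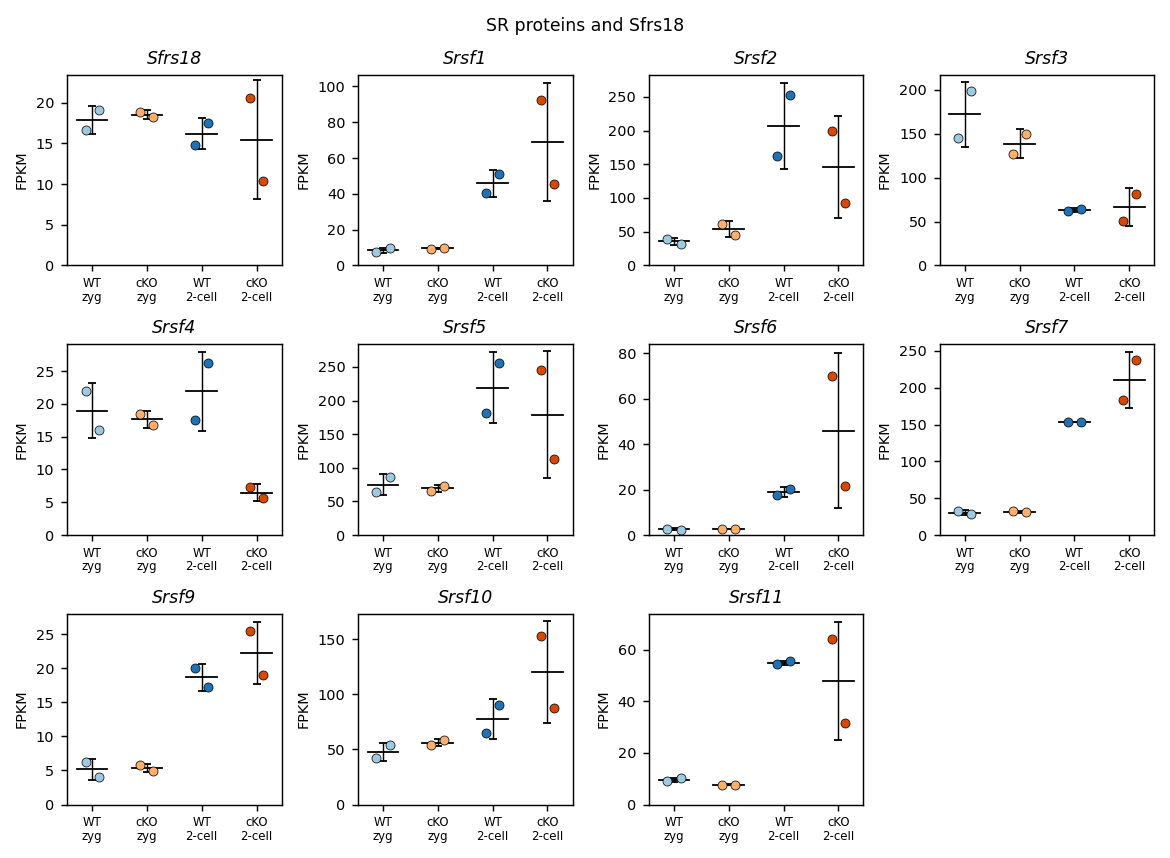
FPKM (vertical axes, linear, from 0) of the 10 Srsf genes and Sfrs18 by group, with points for libraries, horizontal bars for the means of 2 and error bars for the SD. Srsf1, Srsf2, Srsf5, Srsf6, Srsf7, Srsf9 and Srsf11 are higher in both WT 2-cell libraries than in all 4 zygote libraries, Srsf3 is lower, and Srsf4 is lowest in the cKO 2-cell libraries.

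Other splicing genes, from lists that hold none of the 52, were read the same way. Of 61 other spliceosome proteins 22 rose and 14 fell from WT zygote to WT 2-cell. Cdc5l, of the Prp19 complex, was at 1.51 and 1.00 FPKM in WT zygotes and at 150.3 and 242 in WT 2-cell embryos, and Snrnp27 of the tri-snRNP fell from 556 and 826 to 146 in both. Of 46 hnRNPs and other splicing regulators 12 rose and 3 fell. Of 15 snRNP assembly factors 10 rose and 2 fell. Tgs1, which modifies the cap of snRNAs, was listed at 1 in all 4 zygote libraries and at 124 and 148 in WT 2-cell embryos. Of 6 kinases that phosphorylate SR proteins 1 rose and 4 fell: Clk4 went from 3.35 and 2.92 to 47.5 and 38.9, and Srpk2 fell from 70.1 and 75.0 to 24.1 and 27.7. Of 7 exon junction genes 2 rose and 3 fell, and here too close partners parted, with Rbm8a going from 18.9 and 15.2 to 246 and 241 and Magohb, which pairs with it, from 162 and 242 to 28.1 and 16.9. Assembly factors thus mostly rose and SR kinases mostly fell, beside 34.2% and 15.5% of all genes.

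Before the first division the maternal loss of Usp16 left the splicing machinery where the test could not separate the genotypes. None of the 52 genes was called between cKO and WT zygotes by limma, against 0.0208% of all genes called higher and 0% called lower, and none passed a ratio of 3 (0.104% and 0.0486% of all genes). At an unadjusted p under 0.05, limma found 324 of all 14392 genes higher and 84 lower. Of the 52 it found 0 higher and 1 lower. That gene was Snrpb, named after its values were seen, at 12.5 and 5.95 FPKM in WT zygotes and at 3.98 and 2.95 in cKO zygotes (log2 fold change -1.13, SE 0.41, limma adjusted p = 1.00). The libraries did not overlap for 8 of the 52 that were higher and 10 that were lower, against 2280 and 1468 of all 14392 genes. In the Sm core 6 of the 7 genes had a negative fold change, and 4 were lower without overlap. Fold changes were negative for 22 of the 52 genes and for 4644 of all 14392. The median log2 fold change over the 52 was 0.04, with values from -1.13 (Snrpb) to 1.05 (Lsm10). This does not show that the genotypes were equal: Lsm10, for instance, was at 84.6 and 30.0 in WT and 128 and 86.9 in cKO zygotes, higher without overlap but not called (log2 fold change 1.05, SE 0.49, limma adjusted p = 1.00). Usp16 itself, the deleted gene, was not called here either (log2 fold change -3.21, SE 0.34, limma adjusted p = 0.191). The lack of calls therefore says little about the 52 genes.

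At the 2-cell stage, 7 of the 52 genes were higher in cKO than in WT embryos and 2 were lower. Lsm12, Snrpd1, Snrpb2, Snrpd3, Snrpe, Sf3b1 and Lsm2 were higher, by 1.78-fold to 3.47-fold in group means, and Srsf4 (3.38-fold) and Lsm1 (1.63-fold) were lower. Over the whole table the balance was the other way, with 6.16% of genes called higher and 24.6% lower by limma, against 13.5% and 3.85% of the 52. The median log2 fold change was 0.19 over the 52 and -0.30 over all genes, and -0.38 over the 7142 genes above the floor in every library, so the median of the splicing genes stood above that of the table. Under median-ratio scaling, which moves the all-gene median to 0.00, 12 were higher and 1 lower with a median of 0.60. Under scaling by summed FPKM 5 were higher and 2 lower with a median of -0.05, against -0.42 over all genes. Counts of all genes called are not given for these scalings. By the ratio of means over 3, Lsm12, Lsm5 and Snrpb2 were higher and Srsf4 lower (2.84% and 13.5% of all genes), and the libraries did not overlap for 20 that were higher and 7 that were lower (14.0% and 43.4%).

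These calls rest on a spread that limma shares over the 4 groups, and the cKO 2-cell libraries were further apart than the others. Of the 52 genes, 19 (36.5%) differed more than 2-fold between the cKO 2-cell libraries. The counts were 3 in WT zygotes, 0 in cKO zygotes and 2 in WT 2-cell embryos. Of the 13897 genes with an annotated transcript length, 30.5% differed that much in cKO 2-cell embryos. Their shares were 2.73%, 1.24% and 6.58% in WT zygotes, cKO zygotes and WT 2-cell embryos. When only the 4 2-cell libraries were fitted, limma called 0 of the 52 in either direction, and 0 of all genes; at an unadjusted p under 0.05 that fit found 5 of the 52 higher and 3 lower, and 819 and 3416 of all genes. With a weight per group it called 2 higher and 0 lower. Without either WT 2-cell library 3 were higher, without either cKO zygote library 4, and without cKO 2-cell replicate 1 or 2 there were 12; without cKO 2-cell replicate 1 the number lower rose to 10, and it was 1 without any of the zygote or WT 2-cell libraries. The counts with weights and without 1 library have no count of all genes beside them. They therefore do not show a change particular to the 52. An exact permutation test of 2 against 2 libraries cannot go below 0.333.

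**Figure D4:**
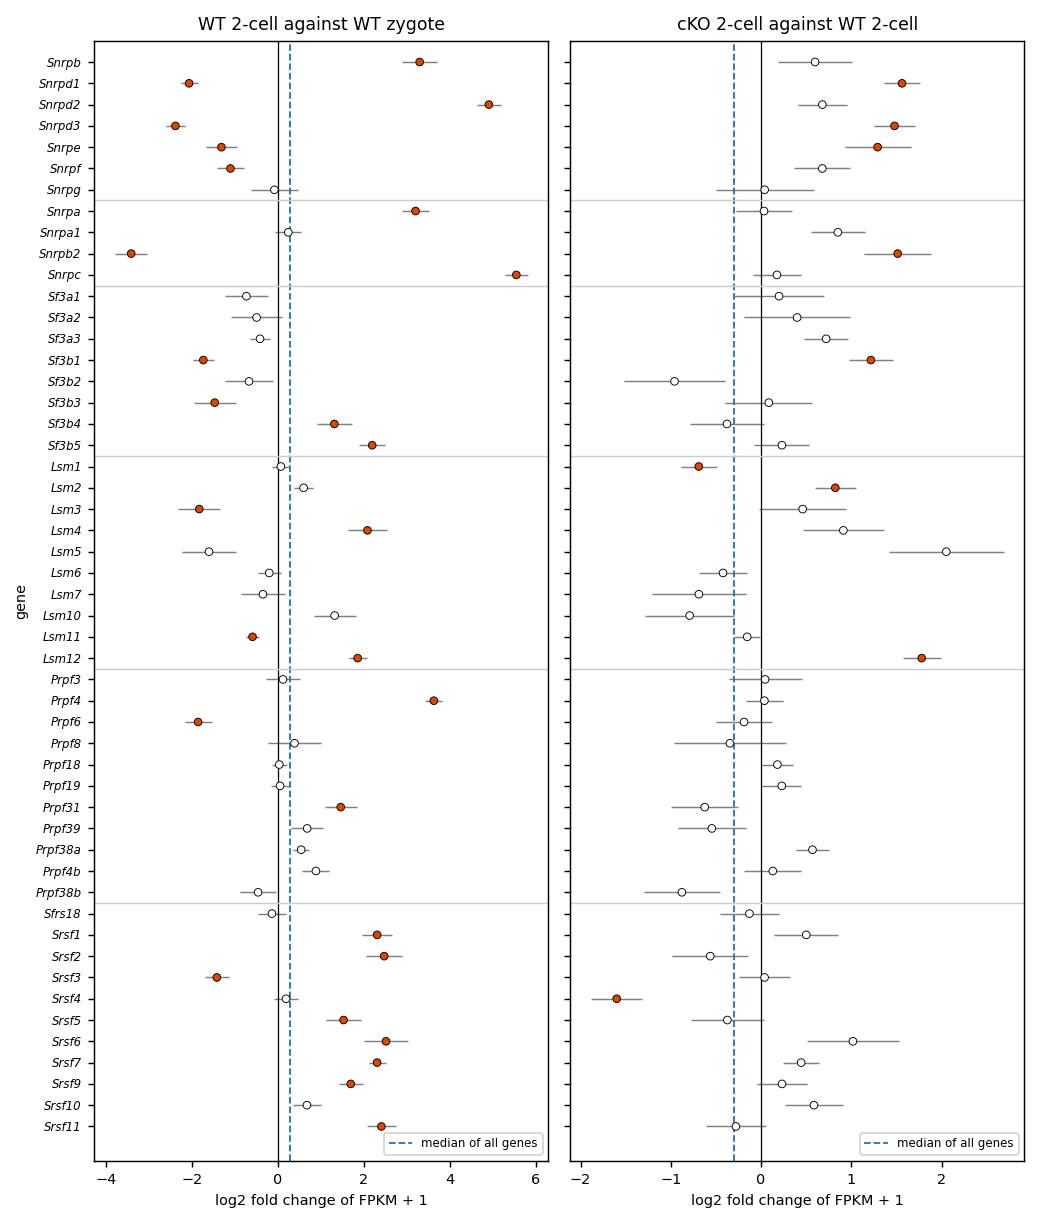
Log2 fold change of FPKM + 1 (horizontal axes) for 51 of the 52 genes, WT 2-cell against WT zygote on the left and cKO 2-cell against WT 2-cell on the right, with bars for the SE from limma. Filled points have an adjusted p under 0.05 and the dashed line is the median of all genes (0.27 and -0.30); the left panel spreads from -3.41 to 5.55 and the right from -1.60 to 2.05, with all 7 Sm core genes right of 0.

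In the Sm core all 7 genes had a positive fold change and 3 were called. Fold changes were positive for 35 of the 52 genes and for 4229 of all 14392. Snrpd1 was at 233 and 242 FPKM in WT 2-cell and at 663 and 745 in cKO 2-cell embryos, beside 924 and 938 in cKO zygotes (log2 fold change 1.56, SE 0.20, limma adjusted p = 0.0037). Snrpd3 was at 158 and 129 in WT and at 364 and 438 in cKO 2-cell embryos, beside 744 and 679 in cKO zygotes (log2 fold change 1.48, SE 0.23, limma adjusted p = 0.00655). Both lay between the WT 2-cell and the zygote levels in each cKO 2-cell library, and both calls held in all 8 fits without 1 library. Snrpe was at 1152 and 921 in WT and at 1823 and 3492 in cKO 2-cell embryos (log2 fold change 1.29, SE 0.37, limma adjusted p = 0.0414); its cKO libraries were far apart, and the call held in 2 of the 8 fits without 1 library. Snrpg had cKO libraries at 1653 and 5088, below and above both WT libraries (3298 and 2414). The genes that had risen in WT had higher means in cKO: Snrpd2 was at 387 and 419 in WT and 677 and 614 in cKO, and Snrpb at 91.0 and 97.8 in WT and 193 and 107 in cKO, neither being called. The highest Sm gene exceeded the lowest 731-fold and 966-fold in cKO zygotes and 9.45-fold and 47.8-fold in cKO 2-cell embryos.

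Among the U1 and U2 snRNP proteins, Snrpb2 was at 53.0 and 45.9 FPKM in WT 2-cell and at 103 and 197 in cKO 2-cell embryos, beside 571 and 683 in cKO zygotes (log2 fold change 1.51, SE 0.37, limma adjusted p = 0.0275). It was higher in both cKO libraries, and the call held in 3 of the 8 fits without 1 library. Snrpc was at 706 and 579 in WT and at 888 and 588 in cKO, and Snrpa at 178 in both WT libraries and at 219 and 151 in cKO. These genes, which rose most in WT embryos, overlapped between genotypes and were not called (log2 fold changes 0.18 and 0.03, each with SE 0.27 to 0.31). In SF3B, Sf3b1 was at 29.6 and 29.2 in WT and at 87.7 and 55.4 in cKO 2-cell embryos (log2 fold change 1.22, SE 0.24, limma adjusted p = 0.0141), again between the WT 2-cell level and the 89.8 and 94.8 of cKO zygotes, with the call kept in 6 of the 8 fits. Sf3b5 was at 266 and 227 in WT and 259 and 321 in cKO and was not called.

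Lsm12 differed in another way, since it had risen in WT embryos and stood higher still in cKO. It was at 34.6 and 46.8 FPKM in WT 2-cell embryos and at 152 and 129.9 in cKO 2-cell embryos, beside 11.3 and 11.4 in cKO zygotes (log2 fold change 1.78, SE 0.21, limma adjusted p = 0.00317). The call held in all 8 fits without 1 library, with an adjusted p of at most 0.0156, and was lost in the fit of the 4 2-cell libraries alone (adjusted p = 0.0653). Lsm2 was at 212 and 172 in WT and at 394 and 289.8 in cKO (log2 fold change 0.82, SE 0.23, limma adjusted p = 0.0375), a call kept in 2 of the 8 fits without 1 library. Lsm5 was at 91.1 and 41.3 in WT and at 145 and 459 in cKO, a 4.56-fold ratio of means that limma did not call (adjusted p = 0.0546). Lsm1, of the decay ring, was at 50.1 and 46.9 in WT and at 26.7 and 32.9 in cKO (log2 fold change -0.69, SE 0.20, limma adjusted p = 0.0436), kept in 1 of the 8 fits. The LSm genes thus lay on both sides, 5 positive and 5 negative, beside 4229 and 9599 of all 14392 genes.

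None of the 12 Prpf factors was called between genotypes at the 2-cell stage by limma. At an unadjusted p under 0.05 there was 1 higher and 0 lower, against 1315 and 4806 of all 14392 genes. Prpf4 was at 25.3 and 23.9 FPKM in WT and at 26.5 and 24.1 in cKO 2-cell embryos, having started at the floor in cKO zygotes. Prpf6 was at 12.6 and 14.2 in WT and at 16.1 and 8.32 in cKO, and Prpf8 at 13.2 and 12.9 in WT and at 21.1 and 4.55 in cKO. The genotypes overlapped for all 3, and for Prpf8 the cKO libraries lay on either side of both WT libraries. Prpf38a was at 189 and 186 in WT and at 249 and 312 in cKO without overlap (log2 fold change 0.57, SE 0.18, limma adjusted p = 0.062).

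Of the SR proteins, Srsf4 alone was called. It was at 17.6 and 26.2 FPKM in WT 2-cell embryos and at 7.40 and 5.57 in cKO 2-cell embryos (log2 fold change -1.60, SE 0.29, limma adjusted p = 0.0101). Its zygote values were 21.9 and 16.0 in WT and 18.5 and 16.8 in cKO, so the cKO 2-cell libraries were below all others. The call held in all 8 fits without 1 library, and the ratio of 3 was lost without cKO 2-cell replicate 2 or WT 2-cell replicate 2. The SR genes that rose in WT embryos had log2 fold changes between genotypes from -0.56 (Srsf2) to 1.02 (Srsf6), none of them called. Srsf6 was at 17.5 and 20.4 in WT and at 70.1 and 21.8 in cKO, so its mean rested on cKO 2-cell replicate 1.

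Transcript length moved with the difference between the cKO 2-cell libraries. For the 12 members whose longest annotated transcript is under 1000 bases, the median log2 ratio of cKO 2-cell replicate 2 to replicate 1 was 0.31, and for the 24 over 3000 bases it was -0.97. Spearman's rho of that ratio with length was -0.40 over the 52 genes and -0.25 over 13897 genes with a length, a correlation across genes of 1 pair of libraries. In WT 2-cell embryos rho had the other sign, at 0.40 over the 52 and 0.11 over the 13897 genes. The medians of the members there were -0.31 and 0.07 in the same length classes. The fold change of cKO over WT 2-cell embryos moved with length too: its median was 0.68 for the short members and -0.05 for the long ones, and over all genes -0.03 and -0.36. Taken singly against the WT mean, cKO 2-cell replicate 1 was above it for 38 of the 52 genes (median 0.38) and replicate 2 for 26 (median 0.01). Over all 14392 genes, replicate 1 was above the WT mean for 4404 (median -0.24) and replicate 2 for 3849 (median -0.35). Sm core genes are nearly all short, with only Snrpb over 1000 bases, and the part of length in their higher values was not tested.

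**Figure D5:**
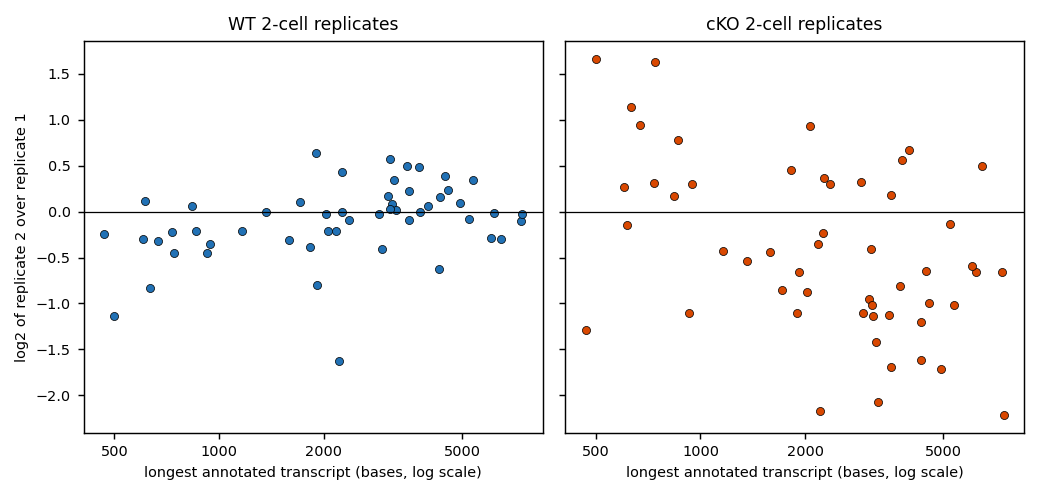
Log2 ratio of replicate 2 to replicate 1 (vertical axes) against the longest annotated transcript in bases (horizontal axes, log scale) for the 52 genes, in WT 2-cell embryos (left) and cKO 2-cell embryos (right). Only 2 WT points lie beyond 1 in either direction, while cKO points run from above 0 for most members under 1000 bases to a median of -0.97 for those over 3000.

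From cKO zygote to cKO 2-cell embryo, 19 of the 52 genes rose and 10 fell by limma, against 24.6% and 27.1% of all genes. The WT and cKO stage comparisons gave log2 fold changes of 5.55 and 5.60 for Snrpc, 4.91 and 5.37 for Snrpd2, -3.41 and -2.12 for Snrpb2, and -2.38 and -0.83 for Snrpd3. Whether the stage change itself differed between genotypes was tested as an interaction in the same model, in which 3 of the 52 were called higher and 0 lower (1.58% and 10.2% of all genes). They were Lsm12 (1.66, SE 0.30, limma adjusted p = 0.025), Snrpd1 (1.66, SE 0.28, limma adjusted p = 0.0214) and Snrpd3 (1.55, SE 0.32, limma adjusted p = 0.0343). For Snrpd1 and Snrpd3 the fall seen in WT was smaller in cKO, and for Lsm12 the rise was larger. All 3 calls were lost when any 1 of the 4 zygote libraries was left out, and without cKO 2-cell replicate 1 or 2 the count rose to 9 or 10.

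In the other lists, genotypes at the 2-cell stage differed for 6 higher and 7 lower of the 61 other spliceosome proteins, 2 higher and 7 lower of the 46 hnRNPs and regulators, 5 higher and 0 lower of the 15 assembly factors, and 0 of the 6 kinases and the 7 exon junction genes (at an unadjusted p under 0.05, 1 kinase was lower and 1 exon junction gene higher). Crnkl1, a protein of the Prp19-related complex, was at 43.1 and 52.1 FPKM in WT and at 182 and 149 in cKO 2-cell embryos, beside 178 and 175 in cKO zygotes. Cwc22, which places the exon junction complex, was at 203 and 248 in WT and at 75.0 and 107 in cKO, beside 13.9 and 13.0 in cKO zygotes. Ptbp2 was at 85.4 and 74.6 in WT and at 22.9 and 19.9 in cKO. Among assembly factors, Sip1, an older symbol of Gemin2, was at 13.9 and 19.0 in WT and at 60.5 and 49.5 in cKO, and Phax, the snRNA export adaptor, at 32.8 and 19.4 and at 71.7 and 65.3. The assembly factors thus had no gene called lower, beside 24.6% of all genes. At an unadjusted p under 0.05 in limma, 1315 of all 14392 genes were higher and 4806 lower.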

How the data were processed

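RNA of 8 libraries of 10 embryos each was measured; the 7 ChIP samples were not analysed here. Per the labels and the study's methods, the authors trimmed Smart-seq2 reads to 50 bases, aligned them to mm9 with TopHat 2.1.1, computed FPKM with Cufflinks 2.2.1, removed genes under 1 in all samples and set lower values to 1. The authors deposited FPKM for 14392 genes; the annotation used is not given in the sources used here, and no counts were given, so depth is unknown. Whole reads were not recovered from the FPKM. Values were tested as log2(FPKM + 1) with limma 3.58.1 in R 4.3.3: a model of the 4 groups, a trend of variance with mean, and Benjamini-Hochberg adjustment over all 14392 genes at 0.05. The study's rule, a ratio of group means over 3, was applied beside it. limma was first tested on simulated data with the same spread in every library, taken from the groups other than cKO 2-cell. That test therefore does not cover the wider spread of the cKO 2-cell libraries. Members, gene lists and tests were chosen with earlier results of these data known. For each role and for both comparisons with WT 2-cell embryos, the text names the 2 called genes with the largest change in each direction; other genes named complete a complex or show a range. The values of 1 member are counted but not reported here. Transcript lengths and mm9 positions came from GENCODE M1 (all 52 members matched), promoters from RefSeq on GRCm38.p6. Alternatives were a filter at a mean FPKM of 5, no pseudocount, scaling by median ratios or summed FPKM, weights per group, a replicate block, a fit of the compared groups alone, each library left out, and other fold thresholds.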

Additional observations from a re-analysis of the deposited data

Results flagged for a closer look

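For 3 genes the difference between genotypes itself differed between the stages, by an interaction term in limma over all genes. Lsm12 differed by 1.66 on the log2 scale: cKO and WT zygotes were close (11.3 and 11.4 FPKM against 10.3 and 10.5), while cKO 2-cell embryos stood at 152 and 129.9 against 34.6 and 46.8. Snrpd1 differed by 1.66, with zygotes at 924 and 938 against 958 and 1037 FPKM and 2-cell embryos at 663 and 745 against 233 and 242. Snrpd3 differed by 1.55, with zygotes at 744 and 679 against 825 and 679 FPKM and 2-cell embryos at 364 and 438 against 158 and 129. Each was higher in both cKO 2-cell libraries than in both WT 2-cell libraries. The adjusted p of the 3 ranged over the alternatives up to 0.118, 0.116 and 0.136.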

How the results depend on the processing

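Of 1003 values of named and called genes under the alternatives, 835 kept direction and call, 168 kept direction but not the call, and 0 reversed. Unless stated, the cause of a moved count was not tested. For cKO against WT 2-cell embryos, the 7 genes higher by limma became 12 with median-ratio scaling, 2 with weights per group, 0 with only the 2 groups fitted (fewer samples) and 3 to 12 without 1 library; the 2 lower became 1 with the filter at a mean FPKM of 5, 1 with median-ratio scaling, 0 with weights, 0 with only the 2 groups and 1 to 10 without 1 library. For the ratio rule in that comparison, the 3 higher became 9 at 2-fold, 0 when every library had to pass, 8 with median-ratio scaling, 1 with scaling by sum and 2 to 6 without 1 library, and the 1 lower became 0 when every library had to pass, 0 with median-ratio scaling and 0 to 3 without 1 library. From WT zygote to WT 2-cell, the 11 lower ranged from 6 to 14 without 1 library, and the 7 lower by ratio became 11 at 2-fold. From cKO zygote to cKO 2-cell, the 10 lower became 4 with weights, 4 with only the 2 groups and 3 to 13 without 1 library. For the interaction, the 3 higher became 5 with median-ratio scaling, 1 with weights and 0 to 10 without 1 library, and the 0 lower became 1 with scaling by sum and 0 to 5 without 1 library. Between zygotes, the ratio rule gave 1 lower at 2-fold and 0 to 1 in either direction without 1 library. A group left with 1 library was assumed to vary like the others.

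Replicate numbers are shared by the groups, but the labels give them no meaning. Deviations from the group means of same-numbered libraries correlated at 0.50 between the zygote groups and at -0.24 between the 2-cell groups over 14392 genes. With a replicate block, limma called 17 higher and 11 lower from WT zygote to WT 2-cell, 0 between zygotes, 6 higher and 1 lower between genotypes at the 2-cell stage, 17 and 9 from cKO zygote to cKO 2-cell, and 2 higher for the interaction. With the numbers of the cKO 2-cell libraries exchanged, chosen after seeing the data, the counts were 20 and 10, 0, 8 and 2, 19 and 9, and 3. Depth is unknown, so counting error could not be given.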
